A study of Mus musculus with 17 samples.

Results

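Mitochondrially encoded genes are the genes carried by the mitochondrial chromosome (MT), and were taken as every gene listed on MT in the bulk count tables: 37 of 54446 genes, made up of 13 protein-coding, 2 rRNA and 22 tRNA genes. The same 37 genes were listed in 1 single-cell table, of skin ILCs, and not in the tables of dorsal skin ILCs at day 10 and day 0 after depilation. Innate lymphoid cells (ILCs) are tissue-resident lymphocytes without rearranged antigen receptors. All mice were on a C57BL/6 background, and live CD90+ skin cells negative for lineage markers and for γδTCR were sorted. The fate-map (fm) groups split ILCs by a reporter that marks cells with a history of expressing a lineage gene: fm_pos_Gata3flox (n = 3), fm_neg_Gata3flox (n = 3), fm_pos (n = 2) and fm_neg (n = 2). The Gata3flox groups came from fate-map mice in which Gata3 is deleted; the Cre they carry is not given in the sample labels. The tamoxifen groups were Gata3KO_tamoxifen (Gata3fl/flCreERT2 mice, n = 2) and WT_tamoxifen (C57BL/6, n = 2), and both received 5 mg of tamoxifen per injection, 3 times, every other day, into the peritoneum. The labels do not say whether libraries of a group came from separate animals, so p-values measure the spread between libraries, which may be technical.

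Mitochondrial DNA is a small circular genome whose proteins are all membrane subunits of the respiratory chain and of ATP synthase. Both of its strands are transcribed as long precursors, from which tRNAs are cut out to release the mRNAs and rRNAs. The rRNAs build the mitochondrial ribosome, which translates the 13 mRNAs, while every other protein of the organelle is made from nuclear genes. Pieces of mitochondrial DNA have also been copied into nuclear chromosomes, and such copies share sequence with the genes they came from.

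Bulk libraries held 14450612 to 44098274 counts. Gata3, the transcription factor deleted in the Gata3flox and Gata3KO mice, was not called in any comparison and was at 299 and 314 CPM (counts scaled to a common library size) in Gata3KO_tamoxifen libraries, against 381 and 581 CPM in WT_tamoxifen libraries. In Gata3flox libraries Gata3 ran between 154 and 442 CPM, against 164 to 504 CPM in fm_pos and fm_neg libraries. Within reporter classes its log2 fold change (± SE) was -0.008 ± 0.35 in fm_pos_Gata3flox minus fm_pos and -0.22 ± 0.35 in fm_neg_Gata3flox minus fm_neg. The counts per gene thus showed no clear fall of Gata3 RNA in the Gata3flox libraries. Ptprc, Thy1, Il7r and Id2, which ILCs express but which are not specific to them, had counts in every library. Cd3e, which marks T cells, also did, at 61 to 1705 counts. The summed fibroblast markers (10 genes) were at 8834 and 6431 CPM in the fm_neg libraries, while the remaining fate-map libraries lay between 71.7 and 1103 CPM. In the tamoxifen set they were at 4288 and 3112 CPM in Gata3KO_tamoxifen libraries and 3973 and 1067 CPM in WT_tamoxifen libraries.

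Most of the mRNA genes in the middle of the mitochondrial map have a near-identical copy on chromosome 1, and the pairs are given here because they bear on every count of those genes. The block of 7 annotated pseudogenes lies on the minus strand at chr1:24611535-24616197 (GRCm38/mm10, GENCODE M21), 4663 bases in all. Gm28661 (a copy of mt-Co2), Gm10925 (mt-Atp6), Gm28437 (mt-Co3), Gm10222 (mt-Nd4l) and Gm28439 (bases 1 to 876 of mt-Nd4) had 0 differing bases over their whole length. Gm28438, the copy of mt-Nd3, differed at 1 of 345 bases, T3C, counted from the first base of mt-Nd3. Gm29216 covered bases 1054 to 1545 of mt-Co1 and differed at 6 bases, T1056A, C1057T, A1059G, A1060G, C1062A and A1066T. These 6 lie at its outer end, and the 479 bases after the last of them were identical. The sequences below show the start of both imperfect copies beside the mitochondrial gene, with differing bases in capitals. The last one is the stretch shared by mt-Atp8 and mt-Atp6, with the first codon of mt-Atp6 and the last codon of mt-Atp8 in capitals.
mt-Nd3, chrM:9459-9518, plus strand: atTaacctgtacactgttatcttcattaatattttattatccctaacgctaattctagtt
Gm28438, chr1:24613060-24613119, minus strand: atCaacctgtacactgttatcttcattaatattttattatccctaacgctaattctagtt
mt-Co1, chrM:6381-6440, plus strand: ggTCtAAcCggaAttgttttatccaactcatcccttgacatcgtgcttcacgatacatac
Gm29216, chr1:24616138-24616197, minus strand: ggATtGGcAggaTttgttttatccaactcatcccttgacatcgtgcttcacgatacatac
mt-Atp8 and mt-Atp6 overlap, chrM:7927-7969, plus strand: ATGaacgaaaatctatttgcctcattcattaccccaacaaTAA

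The share of all 100-base windows of a gene that recur exactly in a nuclear gene model was 99.5% for mt-Co2 and mt-Atp6, 99.9% for mt-Co3, 98.5% for mt-Nd4l and 97.6% for mt-Nd3. It was 60.8% for mt-Nd4, 30.8% for mt-Co1 and 3.19% for mt-Nd2. It was 0 for mt-Nd1, mt-Nd5, mt-Nd6, mt-Cytb, mt-Atp8, mt-Rnr1 and mt-Rnr2. No gene model covers the 233 bases between Gm10925 and Gm28661 on chromosome 1, a gap of the same length as the mitochondrial stretch between the copied parts of mt-Co2 and mt-Atp6, where most of mt-Atp8 lies. How the authors' counting treated reads that align to several places is not given in the sources used here, so counts of the shared genes and of their copies are uncertain.

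Levels are given here as CPM per kilobase of gene. The rRNA of the large ribosomal subunit, mt-Rnr2, had the highest median over the 14 libraries, 6131 CPM per kb, with a range of 2596 to 10924. The rRNA of the small subunit, mt-Rnr1, had a median of 3045 CPM per kb and a range of 1128 to 5788. Among the mRNAs, mt-Co1, the catalytic subunit of complex IV (cytochrome c oxidase), had the highest median at 4405 CPM per kb, with a range of 2868 to 5595. It was followed by mt-Cytb, the only mitochondrially encoded subunit of complex III, at 3043 CPM per kb (2347 to 4470). mt-Nd1, a membrane subunit of complex I (NADH dehydrogenase), was at 2781 CPM per kb (2022 to 3761). The other complex I subunits with little or partial sharing were lower: mt-Nd4 at 654 CPM per kb, mt-Nd2 at 519, mt-Nd5 at 393 and mt-Nd6 at 322. mt-Nd6 is the only mRNA encoded on the opposite strand, and it overlaps mt-Nd5 by 14 bases; no strand setting is given for the counting, so reads from the 2 strands cannot be told apart.

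The order of these 7 mRNAs was close to fixed. mt-Co1 stood above mt-Cytb in 14 of 14 libraries, by 1.05 to 1.85 times, and mt-Nd1 stood above mt-Nd4 in 14 of 14, by 3.47 to 5.14 times. mt-Cytb and mt-Nd1 changed places: mt-Cytb was higher in 7 of 14 libraries, with ratios of 0.851 to 1.78. mt-Nd4 was above mt-Nd2 in 13 of 14 libraries, and mt-Nd5 above mt-Nd6 in 13 of 14. The neighbours mt-Cytb and mt-Nd1, mt-Nd4 and mt-Nd2, and mt-Nd5 and mt-Nd6 were therefore not separated in every library.

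**Figure D1:**
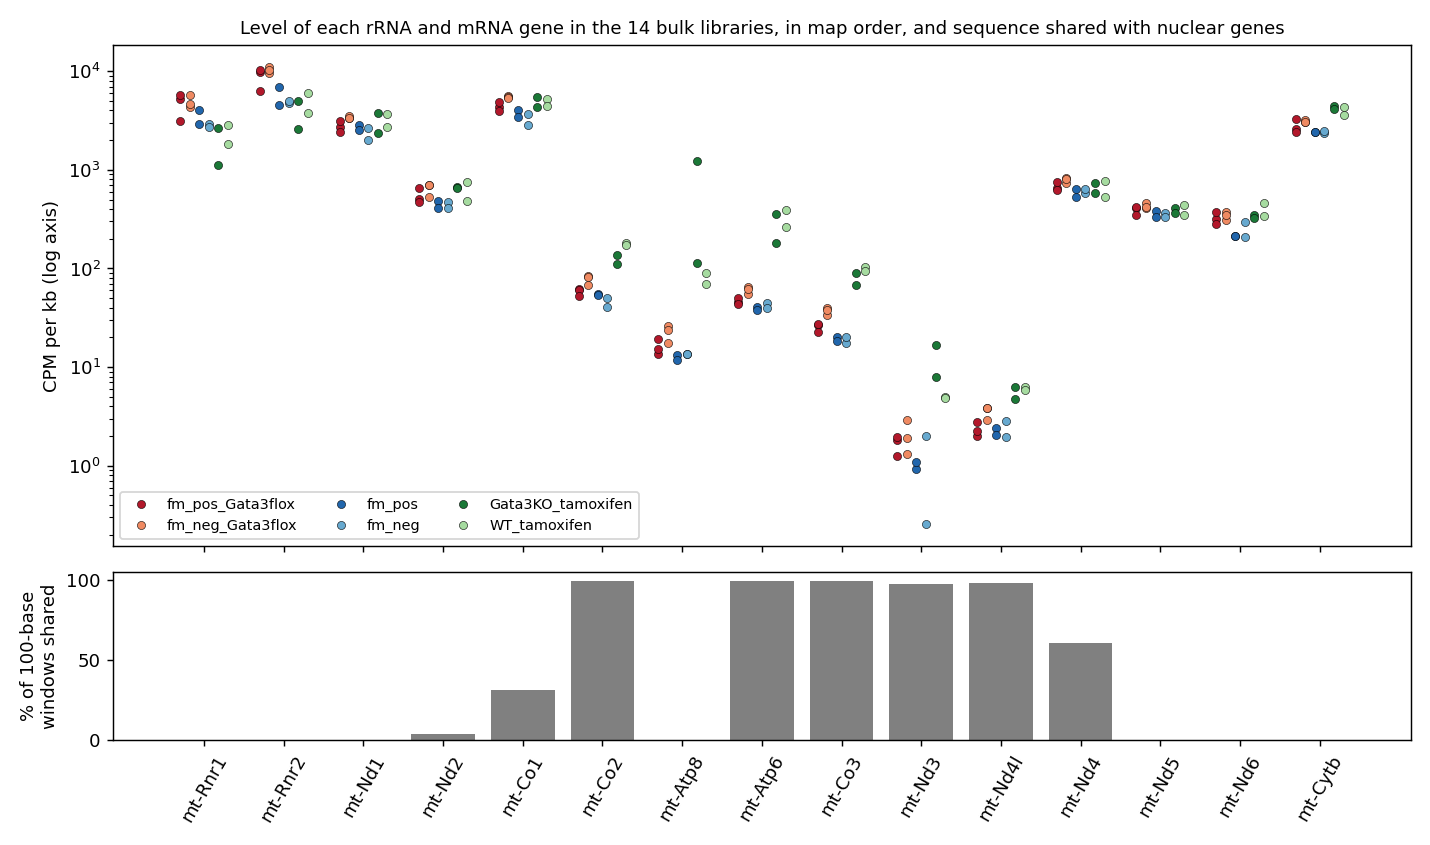
The upper panel plots the level of each rRNA and mRNA gene in CPM per kb (log axis) in the 14 bulk libraries, 1 point per library coloured by group, with genes in map order. The lower panel plots the percent of 100-base windows of each gene that recur in a nuclear gene model: the 5 genes near 100% sit between 0.259 and 394 CPM per kb, and mt-Atp8 beside them is low in most libraries with no shared window.

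The other 6 mRNAs were far lower. Median levels were 64.5 CPM per kb for mt-Co2, 52.1 for mt-Atp6, 30.5 for mt-Co3, 18.5 for mt-Atp8, 2.85 for mt-Nd4l and 1.93 for mt-Nd3. mt-Co2 and mt-Co3 encode the remaining core subunits of complex IV, mt-Atp6 and mt-Atp8 membrane subunits of ATP synthase, and mt-Nd3 and mt-Nd4l small subunits of complex I. In the 10 fate-map libraries these 6 genes held 0.589% to 0.781% of all mitochondrial mRNA counts, and in the 4 tamoxifen libraries 2.44% to 2.64%. The ranges of the fate-map and tamoxifen sets did not overlap; the sets differ in mice, treatment and a code in the deposited names, which cannot be told apart.

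Counts on the copies were of the same order as those on the mitochondrial gene for most of the fully shared pairs. mt-Co2 had 498 to 1926 counts per library and Gm28661 had 424 to 7123. mt-Atp6 had 391 to 4160 counts and Gm10925 had 631 to 9718, while mt-Co3 had 227 to 1287 and Gm28437 had 590 to 4301. mt-Nd4 and mt-Co1, which are only partly copied on chromosome 1, held 98.8% to 99.7% and 96.9% to 99.4% of the counts of their pairs. A pseudogene on chromosome 2, Gm13340, aligned over bases 1 to 1545 of mt-Co1 with 37 differing bases and is not part of these pairs. Single libraries stood out on single copies: Gm10925 reached 9718 counts in fm_pos_Gata3flox replicate 1 against 1320 and 1641 in the other 2 of that group. Gm28661 reached 7123 counts in fm_neg_Gata3flox replicate 1 against 2073 and 1214 in its group. Gm29216 was at 6658 and 6394 counts in fm_pos_Gata3flox replicates 2 and 3, against 2074 in replicate 1. With the counts of the copy added, the mt-Co2, mt-Atp6 and mt-Co3 pairs held at most 0.0422%, 0.0795% and 0.0383% of a library's counts. mt-Co1 and its copy held at most 0.884%. Reads left uncounted because they align to both places would be in neither gene, so these sums set no upper limit.

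Summed over all 37 genes, mitochondrial RNA took 2.16% to 4.12% of a library's counts; the 95% Wilson intervals were no wider than 0.00937 percentage points to either side and cover counting error only. The 13 mRNAs took 1.48%, 1.64% and 1.31% of counts in fm_pos_Gata3flox libraries, against 1.46% and 1.22% in fm_pos libraries. In reporter-negative cells they took 1.81%, 1.86% and 1.76% in fm_neg_Gata3flox libraries, against 1.16% and 1.30% in fm_neg libraries. The reporter-negative groups did not overlap, while the reporter-positive ones did.

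The 2 rRNAs took 2.07%, 2.08% and 1.27% in fm_pos_Gata3flox libraries, against 1.56% and 0.989% in fm_pos libraries. In fm_neg_Gata3flox libraries they took 1.94%, 2.26% and 2.04%, against 1.08% and 1.04% in fm_neg libraries. Averaged over the 2 reporter classes, Gata3flox libraries exceeded intact ones by 0.357 percentage points for mRNA (exact stratified permutation test, 2-sided, p = 0.02) and by 0.776 points for rRNA (exact permutation p = 0.03). The ratio of rRNA to mRNA counts was 0.279 higher (exact permutation p = 0.04), and tRNA counts were 0.000661 points higher (exact permutation p = 0.02). mt-Nd6 as a share of mitochondrial mRNA was 0.0862 percentage points higher (exact permutation p = 0.53). After Benjamini-Hochberg adjustment over the 10 values tested, the first 4 were at an adjusted exact permutation p of 0.1 and mt-Nd6 at 0.662, so none passed 0.05. Without fm_pos_Gata3flox replicate 3, the first 4 reached an adjusted exact permutation p of 0.0417; over the tests that left out 1 library it ran from 0.0417 to 0.312.

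Between reporter classes no difference in share passed the test. Reporter-positive minus reporter-negative libraries, averaged over intact and Gata3flox mice, differed by -0.113 percentage points for mRNA (exact permutation p = 0.3), -0.0298 for rRNA (exact permutation p = 0.833) and -0.000229 for tRNA (exact permutation p = 0.3). These averages join differences of opposite sign. Mean mRNA shares were 1.48% in fm_pos_Gata3flox against 1.81% in fm_neg_Gata3flox libraries, without overlap, and 1.34% in fm_pos against 1.23% in fm_neg libraries. Mean rRNA shares were 1.81% against 2.08% in Gata3flox mice and 1.27% against 1.06% in intact mice, in the same order, with overlap in both. In the tamoxifen set mRNA took 1.99% and 1.64% in Gata3KO_tamoxifen libraries, against 2.13% and 1.53% in WT_tamoxifen libraries. rRNA took 1.02% and 0.514% in Gata3KO_tamoxifen libraries, against 1.30% and 0.735% in WT_tamoxifen libraries. The tamoxifen groups overlapped on both measures, and 2 against 2 libraries allow no exact p below 0.333. The rRNA to mRNA ratio was 0.513 and 0.313 in Gata3KO_tamoxifen and 0.610 and 0.482 in WT_tamoxifen libraries, below the 0.800 to 1.39 of every fate-map library. Whether polyadenylated RNA was selected before sequencing is not given in the sources used here.

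**Figure D2:**
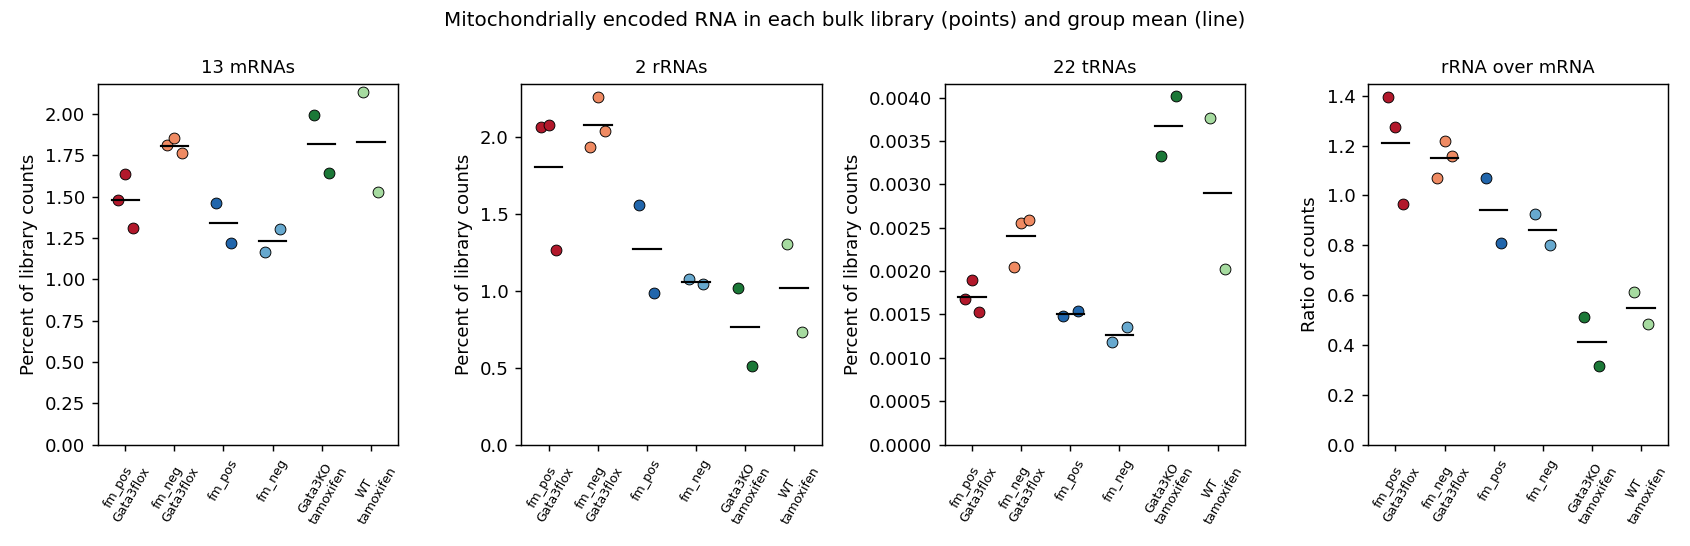
Percent of library counts on mitochondrial mRNAs, rRNAs and tRNAs, and the ratio of rRNA to mRNA counts, in each bulk library (points) with the group mean (line). The fm_neg_Gata3flox libraries lie above both fm_neg libraries in all 4 panels, for mRNA at 1.76% to 1.86% against 1.16% and 1.30%.

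In reporter-negative cells, mt-Co1 was the member that passed the test between Gata3flox and intact mice, and 12 of the 13 mRNAs were higher in every fm_neg_Gata3flox library than in both fm_neg libraries. Of all 17456 genes tested, 21.9% were separated in that way. mt-Co1 was at 5595, 5541 and 5300 CPM per kb in fm_neg_Gata3flox libraries, against 2868 and 3649 in fm_neg libraries. It rose by 0.75 ± 0.14 on the log2 scale (SE; edgeR quasi-likelihood test, adjusted p = 0.0447). This was 1 of the 18 mitochondrial genes tested, where 1.33% of all 17456 genes tested were called. Without fm_neg replicate 2 the edgeR adjusted p was 0.0476. Without fm_neg replicate 1 the rise was 0.59 (edgeR adjusted p = 0.163), and without fm_neg_Gata3flox replicates 1, 2 or 3 it was 0.73, 0.74 and 0.77 (edgeR adjusted p = 0.127, 0.158 and 0.135), so the call was lost in those 4 fits. With sequencing lane as a covariate it was 0.74 (edgeR adjusted p = 0.0785), and with a replicate block 0.80 (edgeR adjusted p = 0.0671).

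The remaining complex IV subunits lay in the same direction without passing: log2 fold changes were 0.77 ± 0.24 for mt-Co2 and 0.98 ± 0.33 for mt-Co3 (edgeR adjusted p = 0.145 and 0.173). The rRNA mt-Rnr2 was at 9525, 10924 and 10245 CPM per kb in fm_neg_Gata3flox libraries, against 4806 and 4975 in fm_neg libraries, so the groups did not overlap. Its log2 fold change was 1.06 ± 0.23 (edgeR adjusted p = 0.0567), the largest among the 15 rRNA and mRNA genes in this comparison, and that of mt-Rnr1 was 0.79 ± 0.25 (edgeR adjusted p = 0.152). Among the least shared complex I genes, mt-Nd1 stood at 0.54 ± 0.15, mt-Nd2 at 0.54 ± 0.19, mt-Nd4 at 0.37 ± 0.14, mt-Nd5 at 0.31 ± 0.14 and mt-Nd6 at 0.46 ± 0.20, with edgeR adjusted p between 0.112 and 0.285. mt-Cytb stood at 0.37 ± 0.14 (edgeR adjusted p = 0.202). For mt-Atp6 and mt-Atp8 the values were 0.51 ± 0.25 and 0.73 ± 0.83.

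All 13 mRNA genes had a log2 fold change above 0, with a median of 0.54 beside 0.07 over all genes tested. An unadjusted edgeR p under 0.05 was reached by 11 of the 18 tested members and by 3132 of all 17456 genes. The one mRNA whose groups overlapped was mt-Nd3. DESeq2 called 5 members here, mt-Rnr1, mt-Rnr2, mt-Nd1, mt-Co1 and mt-Co3, and 10.8% of the 14606 genes to which it gave an adjusted p. The 2 fm_neg libraries, the lower group here, were also those with the highest fibroblast markers, and their keratinocyte markers (14 genes) summed to 4806 and 2632 CPM, while the remaining fate-map libraries lay between 418 and 787 CPM. Ribosomal protein genes summed to 51519, 52050 and 53697 CPM in fm_neg_Gata3flox libraries, against 31316 and 31901 CPM in fm_neg libraries. Genes with a count numbered 18127 to 18555 in fm_neg_Gata3flox libraries and 15248 to 15410 in fm_neg libraries. The part of these measures in the mitochondrial difference was not tested, and in bulk samples fewer cells of a type and less RNA per cell cannot be told apart. A code in the deposited names differs between all intact and all Gata3flox libraries and cannot be told apart from the genotype.

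In reporter-positive cells no member passed the test in the same contrast; the difference between the reporter classes is given as an interaction further on. mt-Co1 was at 4314, 4909 and 3948 CPM per kb in fm_pos_Gata3flox libraries, against 4023 and 3422 in fm_pos libraries, and these ranges overlapped. Its log2 fold change was 0.24 ± 0.14 (edgeR adjusted p = 0.371). The edgeR test called 0 of 18 members, where 1.52% of all genes were called. DESeq2 called 0 of the 17 members to which it gave an adjusted p, and 12.3% of all such genes. An unadjusted edgeR p under 0.05 was reached by 2 members, mt-Rnr2 and mt-Nd6, and by 3333 of all 17456 genes. mt-Rnr2 stood at 0.60 ± 0.22 (edgeR adjusted p = 0.198) and mt-Nd6 at 0.61 ± 0.20 (edgeR adjusted p = 0.162). mt-Nd6 was at 317, 376 and 284 CPM per kb in fm_pos_Gata3flox libraries, above the 213 and 215 of fm_pos libraries. All 13 mRNAs again lay above 0, with a median of 0.24 against 0.18 over all genes tested.

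**Figure D3:**
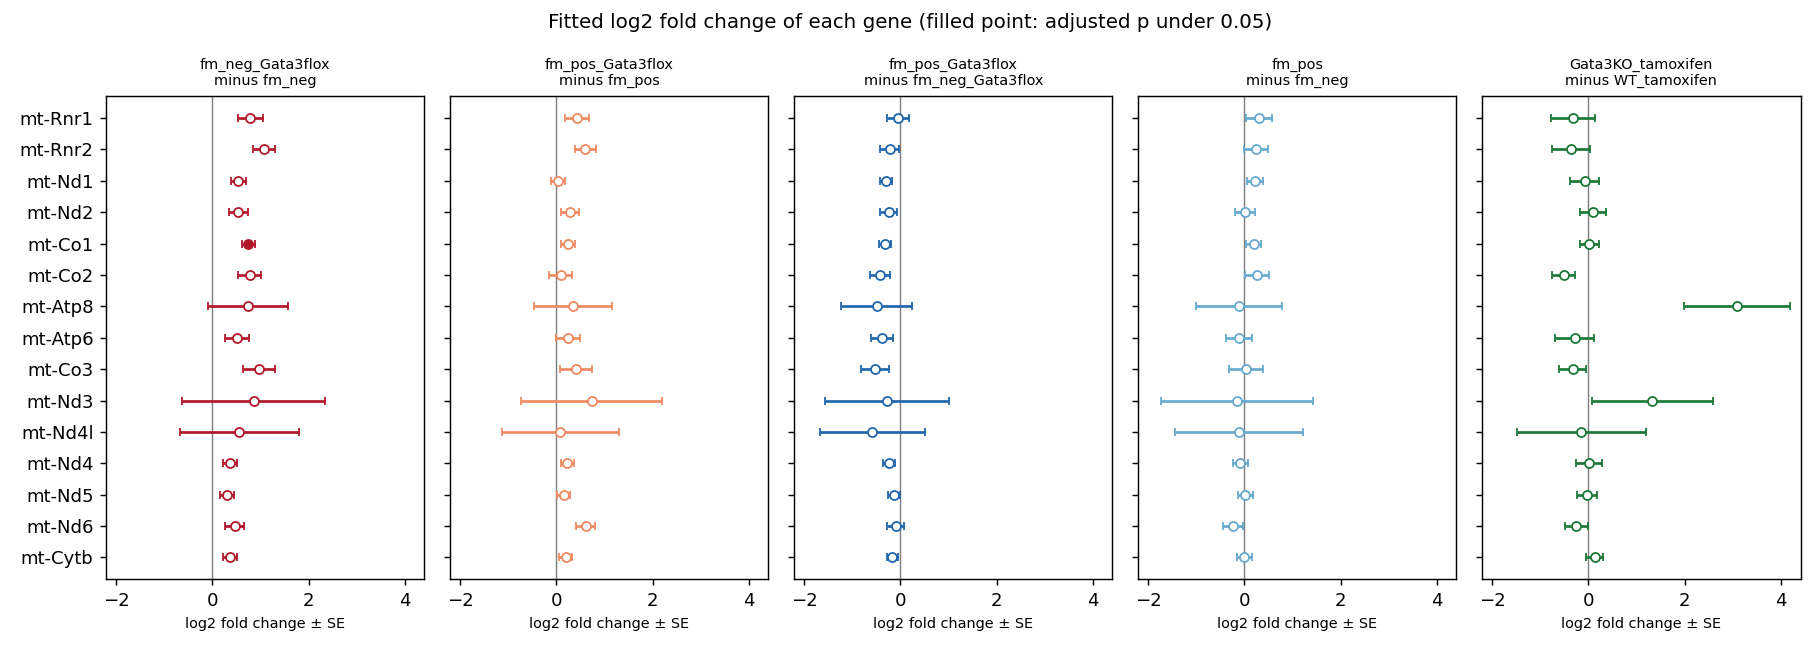
Fitted log2 fold change (point) and SE (bar) of the 2 rRNA and 13 mRNA genes in 5 comparisons, with genes in map order and a filled point where the adjusted p was under 0.05. The one filled point is mt-Co1 in fm_neg_Gata3flox minus fm_neg at 0.75, and mt-Atp8 in Gata3KO_tamoxifen minus WT_tamoxifen lies at 3.09 with an SE of 1.10.

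Between reporter classes the mitochondrial genes gave 0 calls in either genotype. In intact mice mt-Co1 was at 4023 and 3422 CPM per kb in fm_pos libraries, against 2868 and 3649 in fm_neg libraries, a log2 fold change of 0.19 ± 0.15 (edgeR adjusted p = 0.54). Of the 13 mRNAs 7 lay above 0 and the median was 0.00. Calls among the 18 members numbered 0 by edgeR, where 2.74% of all genes were called. DESeq2 called 0 of the 17 members to which it gave an adjusted p, and 14.5% of all such genes. An unadjusted edgeR p under 0.05 was reached by 0 members and by 3462 of all 17456 genes. In Gata3flox mice mt-Co1 was at 4314, 4909 and 3948 CPM per kb in fm_pos_Gata3flox libraries, below the 5595, 5541 and 5300 of fm_neg_Gata3flox libraries. Its log2 fold change was -0.32 ± 0.13 (edgeR adjusted p = 0.565), and mt-Nd1 stood at -0.30 ± 0.13 (edgeR adjusted p = 0.643). All 13 mRNAs lay below 0 there, with a median of -0.30 against 0 for all genes, and 6 of them had groups that did not overlap, where 9.18% of all genes were lower without overlap. Neither edgeR nor DESeq2 called a member. Of all genes 0.361% were called by edgeR. DESeq2 gave an adjusted p to 16 members and called 2.87% of all such genes. An unadjusted edgeR p under 0.05 was reached by 1 member and by 1360 of all 17456 genes.

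The difference between these 2 reporter contrasts, tested as an interaction, gave 0 calls among the members by edgeR and by DESeq2. Of all genes 1.01% were called by edgeR. DESeq2 gave an adjusted p to 17 members and called 7.58% of all such genes. An unadjusted edgeR p under 0.05 was reached by 2 members and by 2586 of all 17456 genes. The members nearest to the threshold were mt-Co1 at -0.51 ± 0.20 and mt-Nd1 at -0.51 ± 0.21 (edgeR adjusted p = 0.276 and 0.301). The median over the 13 mRNAs was -0.27, and mt-Nd6 was the one above 0, at 0.14 ± 0.28. The 4 fate-map comparisons share libraries, so their values are not independent of each other.

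After tamoxifen, the most abundant mRNAs overlapped between genotypes. mt-Co1 was at 5462 and 4388 CPM per kb in Gata3KO_tamoxifen libraries, against 5272 and 4421 in WT_tamoxifen libraries (log2 fold change 0.02 ± 0.20). mt-Cytb was at 4470 and 4182 CPM per kb in Gata3KO_tamoxifen libraries, against 4296 and 3596 in WT_tamoxifen libraries (0.13 ± 0.18). mt-Nd1, mt-Nd4 and mt-Nd5 stood at -0.07 ± 0.30, 0.01 ± 0.26 and -0.03 ± 0.21. The rRNAs stood at -0.32 ± 0.46 for mt-Rnr1 and -0.36 ± 0.39 for mt-Rnr2. mt-Co2 and mt-Co3 stood at -0.51 ± 0.24 and -0.33 ± 0.27, lower in both Gata3KO_tamoxifen than in both WT_tamoxifen libraries. The share of all genes separated like these was not counted. edgeR called 0 of 17 members and 0 of all 13272 genes (0%; 915 had an unadjusted p under 0.05), while DESeq2 called 200 genes (1.63% of those with an adjusted p) and 1 member, mt-Atp8.

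mt-Atp8 had 6072 and 338 counts in Gata3KO_tamoxifen libraries, against 284 and 226 counts in WT_tamoxifen libraries and 40 to 133 counts in fate-map libraries. Per kb this was 1235 and 114 CPM in Gata3KO_tamoxifen, against 89.7 and 69.3 CPM in WT_tamoxifen libraries. Its log2 fold change was 3.09 ± 1.10 (edgeR adjusted p = 0.657; DESeq2 adjusted p = 0.0155), and 1 library, Gata3KO_tamoxifen replicate 1, carried most of it: without that library the log2 fold change was 0.52, and with lane as a covariate, where it is the one library on its lane, 0.52. mt-Atp6, which overlaps mt-Atp8 by 43 bases, was at 182 and 358 CPM per kb in Gata3KO_tamoxifen libraries and 394 and 265 in WT_tamoxifen libraries.

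mt-Nd3 and its copy Gm28438, whose first 60 bases are printed above, divided their counts differently in the Gata3KO_tamoxifen libraries; this pair was singled out after its values were seen and gets no test. mt-Nd3 had 141 and 40 counts in Gata3KO_tamoxifen libraries, against 27 and 27 in WT_tamoxifen libraries, and Gm28438 had 15 and 12 counts in Gata3KO_tamoxifen libraries, against 190 and 130 in WT_tamoxifen libraries. The intervals that follow cover counting error only. mt-Nd3 held 90.4% (95% Clopper-Pearson interval 84.6% to 94.5%) and 76.9% (63.2% to 87.5%) of the pair's counts in Gata3KO_tamoxifen libraries, against 12.4% (8.36% to 17.6%) and 17.2% (11.6% to 24.0%) in WT_tamoxifen libraries. In the 10 fate-map libraries its share was 1.34% to 6.996%. The fitted log2 fold changes were 1.32 ± 1.26 for mt-Nd3 and -3.81 ± 1.07 for Gm28438, and neither was called. The pair differs at 1 of 345 bases, and 97.6% of 100-base windows of mt-Nd3 are shared. How reads were assigned between the pair is not given, and its part in the split was not tested. The split is therefore not read as a difference in expression of either gene.

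**Figure D4:**
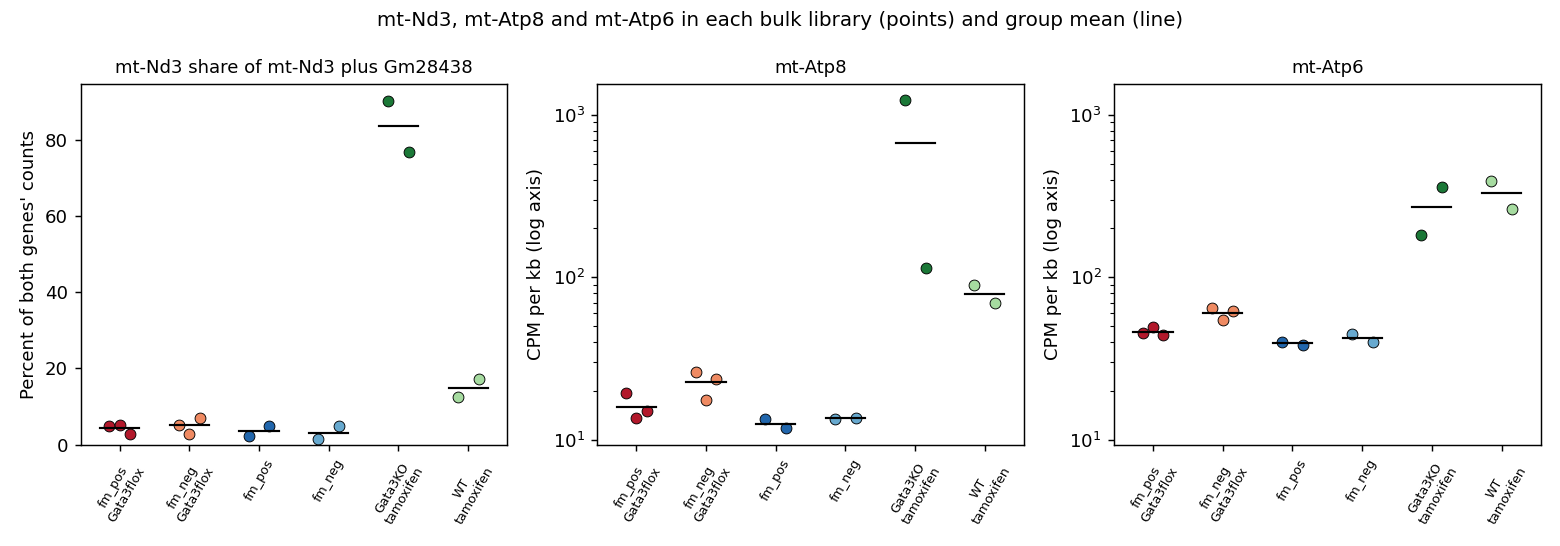
Left, mt-Nd3 counts as a percent of mt-Nd3 plus Gm28438 counts in each bulk library; middle and right, mt-Atp8 and mt-Atp6 in CPM per kb (log axis); points are libraries and lines group means. The Gata3KO_tamoxifen libraries sit at 90.4% and 76.9% in the left panel, against 12.4% and 17.2% in WT_tamoxifen, and 1 of them stands apart for mt-Atp8 at 1235 CPM per kb. How reads were assigned between mt-Nd3 and Gm28438 is not given.

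The tRNA genes, 14 on the plus and 8 on the minus strand, had few counts. Of 6818 tRNA counts over the 14 libraries, 92.7% fell on mt-Tp, the proline tRNA next to the control region, and 3.37% on mt-Tn, the asparagine tRNA. mt-Tf, mt-Tv, mt-Ts1, mt-Td and mt-Tk had 0 counts in every library, which allows up to 3 counts per library each, and the other 15 had 1 to 70 counts in all. mt-Tp was at 18.9, 24.0 and 24.5 CPM in fm_neg_Gata3flox libraries, against 10.5 and 12.2 CPM in fm_neg libraries (log2 fold change 0.99 ± 0.39, edgeR adjusted p = 0.228). Its values in the tamoxifen set were 31.6 and 37.9 CPM in Gata3KO_tamoxifen libraries and 32.7 and 18.5 CPM in WT_tamoxifen libraries. mt-Tn had 0 to 30 counts per library, and mt-Tm, the methionine tRNA, 1 to 20; both had SEs over 1 in every fit. mt-Tm was tested in the fate-map set only.

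The nuclear partners of these genes were described as lists. Among nuclear subunits 0 of 36 of complex I, 0 of 9 of complex III, 0 of 11 of complex IV and 0 of 16 tested of ATP synthase were called by edgeR in any comparison, and complex II, which has no mitochondrial subunit, gave 0 of 4. The 19 genes of mitochondrial DNA transcription and replication also gave 0. These comparisons called 0% to 2.74% of all genes, so nothing is read from a count of 0 in lists of this size. In fm_neg_Gata3flox minus fm_neg, 11 of 11 nuclear complex IV subunits and 32 of 36 of complex I lay above 0, with medians of 0.60 and 0.36 against 0.07 for all genes. ATP synthase gave 14 of 16 above 0 there (median 0.54) and complex III 6 of 9 (0.30). Complex II gave 2 of 4 (0.008), and the transcription and replication genes 10 of 19 (0.016). In fm_pos minus fm_neg, 11 of 11 of complex IV and 31 of 36 of complex I lay above 0. Their medians were 0.40 and 0.31 against 0. ATP synthase gave 15 of 16, complex III 7 of 9, complex II 4 of 4, and the transcription and replication genes 10 of 19. Both comparisons share the fm_neg libraries. Of 82 cytosolic ribosomal protein genes tested, 19 rose in fm_neg_Gata3flox minus fm_neg, where 0.596% of all genes rose, among them Rps9 at 0.82 ± 0.14, Rps4x at 0.99 ± 0.17 and Rps13 at 0.86 ± 0.15 (edgeR adjusted p = 0.0301, 0.0326 and 0.0335). Without fm_neg replicate 2 that count was 1, and without any other single library of the 2 groups it was 0. With lane as a covariate or with a replicate block the count was also 0. Of the same genes 1, Rps13, rose in fm_pos_Gata3flox minus fm_pos (0.83 ± 0.15, edgeR adjusted p = 0.0314), where 1.11% of all genes rose.

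Of 27 genes of mitochondrial RNA processing, 1 rose and 1 fell in fm_pos minus fm_neg, where 0.624% of all genes rose and 2.11% fell. Rexo2, an exonuclease that clears short RNA in mitochondria, was at 337 and 390 CPM in fm_pos libraries, against 182 and 203 CPM in fm_neg libraries (0.92 ± 0.17, edgeR adjusted p = 0.0248). Without fm_pos replicate 2 its edgeR adjusted p was 0.0544 and without fm_neg replicate 1 it was 0.0852. With a replicate block the edgeR adjusted p of Rexo2 was 0.069. Mrm3, which methylates mitochondrial large-subunit rRNA, had 0 counts in both fm_pos libraries, against 243 and 281 counts in fm_neg libraries, and fell (edgeR adjusted p = 0.00228). It was at least 341-fold lower, taking 3 counts over the fm_pos group as the limit of a count of 0. That limit covers counting error only, and libraries of a group can differ by more. Cpa3, a mast cell marker, had 0, 0 and 913 counts in fm_neg_Gata3flox libraries. Mrm3 had 231, 256 and 280 counts in fm_pos_Gata3flox libraries, at least 186-fold above fm_pos by the same limit (edgeR adjusted p = 0.0053). It was also called in the interaction (edgeR adjusted p = 0.00606; 0.0702 with a replicate block). With the libraries of the 2 groups alone, the edgeR adjusted p of Mrm3 was 0.246 in fm_pos minus fm_neg and 0.134 in fm_pos_Gata3flox minus fm_pos.

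Of the 77 mitochondrial ribosomal protein genes tested, 1 rose in fm_pos minus fm_neg, where 0.624% of all genes rose, and 1 in fm_neg_Gata3flox minus fm_neg, where 0.596% did. Mrpl54 rose in fm_pos minus fm_neg, at 89.4 and 92.5 CPM in fm_pos libraries against 44.6 and 40.5 CPM in fm_neg libraries (1.10 ± 0.24, edgeR adjusted p = 0.0416). Leaving out any 1 of the 4 libraries moved its edgeR adjusted p to between 0.0691 and 0.118, and a replicate block to 0.0983. Mrpl43 rose in fm_neg_Gata3flox minus fm_neg, at 77.7, 65.4 and 68.3 CPM in fm_neg_Gata3flox libraries against 31.4 and 16.3 CPM in fm_neg libraries (1.56 ± 0.31, edgeR adjusted p = 0.0485). Without fm_neg replicate 1 it kept its call, and without any 1 of the other 4 libraries its edgeR adjusted p was 0.123 to 0.148, and with a replicate block 0.0793.

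In the skin single-cell library, 4441 of 4444 cell barcodes had at least 200 genes and were kept, with 10611319 counts and a median of 2260 counts per cell. Mitochondrial genes took 4.78% of counts (95% exact interval 4.76% to 4.79%, counting error only), of which mRNAs took 3.20%, rRNAs 1.56% and tRNAs 0.0157%. Per cell the share ran from 0.432% to 36.4%, with a median of 4.63%, and 335 cells (7.54%) were over 10%. It went with depth: in 4 groups of cells of about equal size ordered by counts, the median was 7.21% in the shallowest (369 to 1567 counts), then 5.13%, 4.17% and 3.75%. Of the 335 cells over 10%, 295 were in the shallowest group. Across the 4441 cells, which share 1 library, Spearman's rho was -0.52 between mitochondrial share and counts per cell and 0.42 between mRNA and rRNA shares.

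The 8 genes with the most counts were among the 9 highest in bulk. mt-Rnr2 had 98813 counts, mt-Cytb 74926, mt-Co1 68973, mt-Nd1 67171, mt-Rnr1 66814, mt-Nd4 49561, mt-Nd2 49319 and mt-Nd5 26820. A count for each of these 8 was present in 96.4% to 99.8% of cells. mt-Atp8 had 1987 counts, mt-Nd6 489, mt-Nd3 164, mt-Atp6 68, mt-Co2 63, mt-Co3 6 and mt-Nd4l 2. Copies of the low genes held more: Gm10925 had 16948 counts, so mt-Atp6 held 0.400% of that pair, and Gm28437 had 3180, so mt-Co3 held 0.188%. mt-Nd3 held 21.4% of its pair (95% Clopper-Pearson interval 18.6% to 24.5%, counting error only). Of 1662 tRNA counts 53.1% were on mt-Td and 18.7% on mt-Ts1, the aspartate and serine tRNAs between mt-Co1 and mt-Co2, which had 0 counts in bulk, and mt-Tp had 16.

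Cells were grouped without the mitochondrial genes into 8 clusters, which belong to 1 library and get no test. The ILC2-like cluster (cluster 2, 1076 cells, led by Il1rl1, Il5, Calca and Klrg1) had a median mitochondrial share of 3.77% at a median of 2838 counts per cell. The T cell-like cluster (cluster 4, 277 cells, led by Cd3e, Blk, Cd3d and Trgc2) had 3.91% at 2471 counts, although γδTCR and lineage-positive cells were gated out. Its leading genes also included Trdc, of the γδTCR, and Xcl1, Ccl5 and Klrc1. Cluster 3 (1693 cells, led by Hspa1a, Hspa1b and Nfkbid, unnamed) had the highest median, 6.21%, at 1681 counts per cell, the fewest. Its rRNAs made up 37.7% of mitochondrial counts, against 32.1% in the ILC2-like cluster. Cluster 5 (1260 cells, led by Ifi202b and Serpinb2, unnamed) had 4.39%. Cluster 6 (63 cells, led by Tff1 and Il4i1, unnamed) had 4.27%, and cluster 7 (44 cells, led by Vcam1, C1qc and Fcna, unnamed) had 4.26%. The B cell-like cluster 1 had 5.25% in 16 cells and the myeloid-like cluster 0 had 1.85% in 12 cells. Predicted doublets were 5 cells (0.113%), too few for the caller to be taken as working, and doublets were kept. Cell barcode names shared between the skin and the dorsal day 0 library numbered 4, and other pairs of libraries shared 0.

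**Figure D5:**
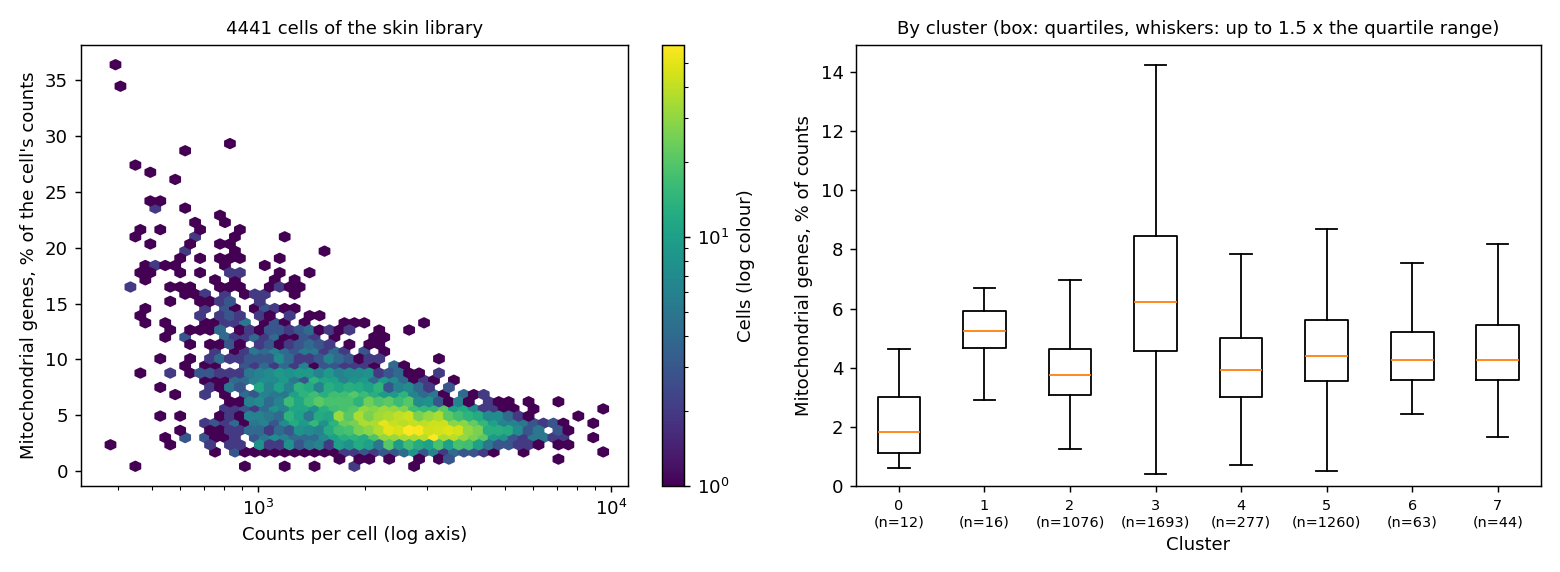
Left, percent of each cell's counts on mitochondrial genes against counts per cell (log axis) for the 4441 cells of the skin library, coloured by the number of cells per hexagon (log colour). Right, the same percent by cluster (line: median; box: quartiles; whiskers: up to 1.5 times the quartile range); cluster 3 has the highest median, 6.21%, and cluster 0 the lowest, 1.85%.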

How the data were processed

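Per the submitters' processing notes, the tools and build named were HISAT2 2.1.0, featureCounts, Subread and mm10. The deposited values are raw counts per gene in 14 bulk libraries and raw counts per gene and cell in 3 single-cell libraries. Strand settings, treatment of multi-mapping reads and RNA selection are not given in the sources used here. The members and gene lists were chosen with earlier results of these data known.

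For the bulk libraries, edgeR 4.0.16 in R 4.3.3 was applied to the counts as deposited (TMM factors, filterByExpr, quasi-likelihood F test, Benjamini-Hochberg over all genes tested, threshold 0.05). The 10 fate-map libraries shared 1 fit and the 4 tamoxifen libraries another. The fits were tested on simulated counts. CPM values use TMM-scaled library sizes, and shares in percent use raw totals. Shares were compared with exact permutation tests within strata (SciPy 1.17.1). Shared sequence was counted from GENCODE M21 transcripts (GRCm38), whose coordinates matched all 37 genes. Single cells were clustered with scanpy 1.11.5 (2000 variable genes, 30 components, 15 neighbours, resolution 0.5).

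All 13 mRNA and 2 rRNA genes and tested tRNAs are named; of each nuclear list, the called members, at most the 3 with the smallest p; of the nuclear copies, those averaging at least 1 CPM. Alternatives were DESeq2 1.42.0, nuclear library sizes, no filter, a minimum mean of 5 CPM, lane, replicate block, both groups alone and leaving out each library. Adding the counts of the chromosome 1 copies to their mitochondrial genes was chosen after seeing the data.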

Additional observations from a re-analysis of the deposited data

Results flagged for a closer look

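Groups held 2 or 3 libraries, so no library was tested as an outlier. For 2 measures the reporter classes were separated in opposite directions in intact and Gata3flox mice. The share of all genes separated in that way was not counted, so nothing is read from the number 2. mt-Co2 was 6.19 CPM higher in fm_pos than in fm_neg libraries and -13.4 CPM, that is lower, in fm_pos_Gata3flox than in fm_neg_Gata3flox libraries, with no overlap in either; the interaction test of mt-Co2 gave -0.68 ± 0.33 on the log2 scale (edgeR adjusted p = 0.38). The share of counts on tRNAs differed by 0.000241 percentage points between fm_pos and fm_neg and by -0.000700 points between fm_pos_Gata3flox and fm_neg_Gata3flox libraries; that difference was not tested.

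The 2 dorsal single-cell libraries list no mitochondrial gene, yet held counts on the chromosome 1 copies. Gm10925 was at 15.004 per 10000 nuclear counts at day 10 after depilation and 16.2 at day 0. Gm29216 was at 7.003 at day 10 and 6.93 at day 0, and Gm28437 at 6.58 at day 10 and 6.28 at day 0. In the skin library the same copies were at 16.8, 4.44 and 3.15 per 10000 nuclear counts.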

How the results depend on the processing

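Mitochondrial genes called in fm_neg_Gata3flox minus fm_neg numbered 1 by edgeR (1.33% of all genes called), 5 by DESeq2 (10.8%), 4 without filtering (3.27%), 3 when the libraries of the pair were fitted alone (2.37%), 2 above a mean of 5 CPM (4.27%), and 0 with lane as a covariate (0.441%); leaving out single libraries gave 0 to 1. The call of mt-Co1 is the one lost, and the cause was not tested. Without filtering, fm_pos_Gata3flox minus fm_pos gave 1 call, mt-Rnr2 (3.57% of all genes). In Gata3KO_tamoxifen minus WT_tamoxifen DESeq2 gave 1, mt-Atp8 (1.63%). Apart from the replicate block described next, every other alternative run left the counts of mitochondrial genes called in these and the other comparisons as reported; adding the chromosome 1 copies and nuclear library sizes were among them.

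Whether replicate numbers pair the libraries is not known. Correlations of same-numbered deviations from group means ran from -0.0255 to 0.0975, and with 2 or 3 libraries per group they cannot exclude pairing. The replicate block gave 0 mitochondrial calls in fm_neg_Gata3flox minus fm_neg, against 1, and 83 calls among all genes (0.475%), against 233; in fm_pos minus fm_neg it gave 126 against 478.

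Counts over all genes moved more: DESeq2 called 2208, 419, 1919, 1584, 1158 and 200 genes where edgeR called 478, 63, 266, 233, 176 and 0 (fm_pos minus fm_neg, fm_pos_Gata3flox minus fm_neg_Gata3flox, fm_pos_Gata3flox minus fm_pos, fm_neg_Gata3flox minus fm_neg, interaction, Gata3KO_tamoxifen minus WT_tamoxifen). The lowest counts over the alternatives that keep all libraries were 29, 10, 0, 77, 26 and 0. Leaving out 1 library gave 514 to 877, 2 to 27, 66 to 489, 5 to 190, 54 to 504 and 0 to 0.

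Leaving out single libraries moved the reporter difference in rRNA share between -0.172 and 0.113 percentage points and that of mt-Nd6 between -0.193 and 0.0703, both reversing. The Gata3flox difference in mt-Nd6 share ran from -0.0455 to 0.218, and was -0.0174 in lane 2 libraries only, also reversed. The Gata3flox differences ran from 0.297 to 0.416 points for mRNA, 0.633 to 0.919 for rRNA, 0.000612 to 0.000747 for tRNA and 0.214 to 0.344 for the rRNA to mRNA ratio. The single-cell share was 4.69% with at least 500 genes per cell and 4.48% in cells at or below 10%. Depth limits mt-Nd3, mt-Nd4l and the tRNAs, which have the fewest counts.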
